A study of Mus musculus with 56 samples.

Results

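Ctcf was knocked down in unsorted mouse cells that were on the way from fibroblasts to pluripotent cells, and RNA was measured on day 10. The authors' deposited table for this experiment holds 1 mean per condition and no replicate values, so sizes of differences are described here without a test. Of the 54395 gene models in that table, 12651 were kept because the higher of their 2 means was at least 100. The experiment has 4 of the 56 samples of the series: 2 libraries with a control shRNA (D10_shcontrol) and 2 with an shRNA against Ctcf (D10_shCTCF). All came from OG2-MEFs, which are embryonic fibroblasts with an Oct4-GFP reporter, and all received Oct4, Sox2, Klf4 and Myc (OSKM) by retrovirus. All were then kept in embryonic stem cell medium with vitamin C, LIF (leukemia inhibitory factor) and inhibitors of MEK and GSK3. Per the labels, only the Ctcf shRNA virus was concentrated before infection, so the knockdown and the virus preparation cannot be told apart. The labels do not say whether libraries of a group came from separate cultures.

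The table does not name its columns, so its 2 means are called here by the gene that was targeted: the mean with less Ctcf and the mean with more Ctcf. That the mean with less Ctcf is the Ctcf shRNA group is an assumption, and Ctcf itself served only to orient the table. Every log2 ratio below is less Ctcf over more Ctcf, unless stated otherwise. The unit is not named in the labels; from the values it appears to be a normalized read count per gene, and it is called a score here. Scaling for gene length is not stated, so levels are not compared between genes. Scores of all gene models summed to 24006697 with less Ctcf and to 24039149 with more Ctcf. The median ratio of all kept genes was -0.003 on the log2 scale, so the scaling placed the bulk of the genes at the same level in both means.

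CTCF is a zinc finger protein that binds DNA, stops the loop extrusion of cohesin and thereby separates regulatory neighbourhoods. Fibroblasts that receive the 4 factors first lose fibroblast genes and gain epithelial ones, and only some later switch on the cell's own pluripotency genes, such as Nanog and Esrrb. A day 10 culture is therefore a mixture, and in such bulk samples fewer cells of a type and less RNA per cell cannot be told apart.

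The difference in Ctcf (GRCm38 chr8:105636568-105682922) was modest. Its score was 2197 in one mean and 1730 in the other, a log2 ratio of -0.34 that was used for orientation and is no finding. Of the other 15 kept genes of CTCF and cohesin function, 7 were above 0 and 8 below, with a median of -0.02 and none past 1.5-fold. Smc1a, a core cohesin subunit, stood at 0.25, and Esco2, an acetyltransferase that acts on cohesin, at -0.39.

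Most genes differed little between the 2 means. At least 2-fold higher with less Ctcf were 47 genes (0.372% of those kept), and at least 2-fold lower were 53 (0.419%). At a fold of 1.5, 224 genes (1.77%) were higher and 271 (2.14%) lower. In the authors' deposited table, which does not state whether its p is adjusted, p was below 0.05 for 1632 genes that were higher (12.9%) and for 1544 that were lower (12.2%). These shares are over kept genes of all levels and are not matched in level to any gene list. Of the 2-fold genes, 39 of 47 and 50 of 53 had such a p. Low values weigh in these counts: 27 of the 100 genes past 2-fold carry the symbol of a predicted gene, a clone or a pseudogene, against 6.77% of all kept genes, and 5 had a mean at 0.5, the lowest value of the table. At the threshold of 100, Zfp784 was kept with a higher mean of 100.02 and Ager was left out with one of 99.98.

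**Figure D1:**
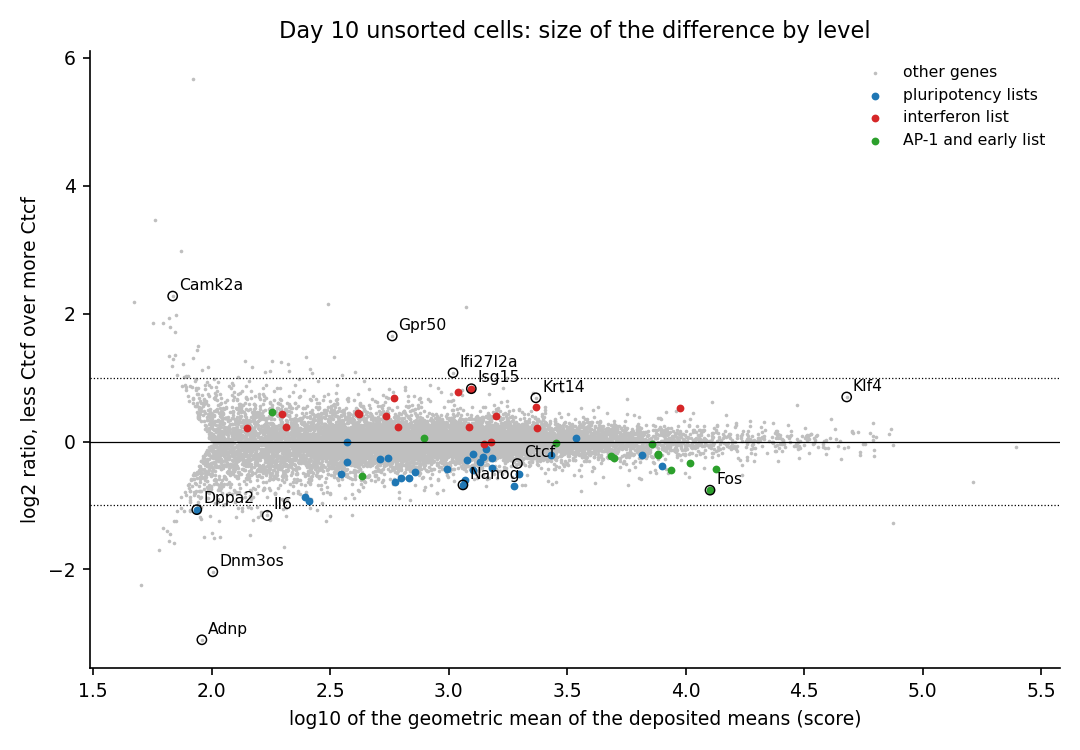
Each point is 1 of the kept genes, with its level on the x axis (log10 of the geometric mean of both scores) and its log2 ratio on the y axis. Dotted lines mark 2-fold, ringed points carry a name, and 5 genes with a mean at 0.5 are not drawn. The spread narrows toward high scores, and Gpr50, Fos and Klf4 lie outside the bulk at their level.

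Genes of pluripotency were lower with less Ctcf, almost without exception. In the list of pluripotency transcription factors, 13 of 14 kept members were below 0, with a median log2 ratio of -0.38. In the list of late pluripotency genes all 15 kept members were below 0, with a median of -0.41. Past 1.5-fold were 3 and 4 of them, and 8 of 14 and 15 of 15 were lower with a p below 0.05 in the authors' deposited table, against 12.2% of all genes. The members left out for their low level, Prdm14, Tcl1 and Dppa3, had higher means of 30.8, 12.6 and 75.1.

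Nanog (GRCm38 chr6:122707489-122714633), a homeobox factor of the pluripotency network, had a score of 1454 with more Ctcf and 908 with less, a log2 ratio of -0.68. Klf2, a Krüppel-like factor of naive cells, went from 2394 to 1483, a log2 ratio of -0.69. Esrrb, an orphan nuclear receptor of the same network, stood at 741 and 479, a log2 ratio of -0.63. These 3 had the lowest ratios among the 14 factors. Otx2, a factor of the later, primed state, stood at -0.57 and Tbx3 at -0.51. At the other end, Tfcp2l1 was at -0.12, Nr5a2 at -0.01 and Mybl2, a cell cycle factor, at 0.06. Naive and primed factors were thus on the same side of 0.

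Among the late genes the 2 neighbours Dppa4 and Dppa2, developmental pluripotency-associated genes of chromosome 16, had the lowest ratios. Dppa2 stood at 125 with more Ctcf and 59.9 with less, a log2 ratio of -1.07. Dppa4 stood at 356 and 187, a log2 ratio of -0.93. Their start sites lie at 48303908 and 48283733. Dnmt3l, a cofactor of de novo DNA methylation, followed at -0.88, and Utf1, a chromatin factor of embryonic stem cells, at -0.60. Among the other members, the ligand Nodal was at -0.56, its co-receptor Tdgf1 at -0.39 and its antagonists Lefty2 and Lefty1 at -0.32 and -0.25. Lin28a, an RNA-binding protein that blocks let-7 maturation, had the smallest difference of the list, at -0.20.

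The 4 factors that were delivered by virus were on the other side of 0. Klf4 stood at 37490 with more Ctcf and 60759 with less, a log2 ratio of 0.70. Sox2 was at 0.57, Myc at 0.28 and Pou5f1, which encodes Oct4, at 0.20. In the authors' deposited table all 4 were higher with a p below 0.05, against 12.9% of all genes. At such high scores a small ratio could also have a p below 0.05 there. Gapdh did, at 69408 with more Ctcf and 75211 with less, a log2 ratio of 0.12. Reads of the viral copies and of the cell's own genes were not separated in these scores. Lower endogenous pluripotency genes thus stood beside higher total scores of the delivered factors.

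The promoter of Nanog is shown because its gene had one of the largest differences at a high level, and because it holds an octamer-type match, the letters ATGCAAA on either strand, part of the sequence that Oct4 can bind (capitals). The sequence is RefSeq's for GRCm38.p6, the 150 bases before the start site on the strand of the gene.
Nanog chr6:122707339-122707488 (+): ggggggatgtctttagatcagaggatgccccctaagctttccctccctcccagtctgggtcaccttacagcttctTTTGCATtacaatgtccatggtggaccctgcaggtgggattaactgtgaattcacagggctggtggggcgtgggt
Of 29 kept genes in the 2 pluripotency lists, 17 had a promoter in the RefSeq table, and 2 of these held these letters. Among all 32851 promoters there, each of 250 bases before and 50 after the start, 4.63% did.

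Interferon-stimulated genes were higher with less Ctcf. Of 17 kept members 15 were above 0 and 2 below, with a median log2 ratio of 0.40. Past 1.5-fold higher were 3, and 11 were higher with a p below 0.05 in the authors' deposited table, against 12.9% of all genes. Mx1 missed the threshold with a higher mean of 94.8. Isg15, a ubiquitin-like modifier, had the largest ratio of the list: its score was 936 with more Ctcf and 1659 with less, a log2 ratio of 0.83. Irf7 (GRCm38 chr7:141262706-141266481), the factor that amplifies type I interferon production, stood at 834 and 1427, a log2 ratio of 0.78. Usp18, which removes Isg15 from its targets, was at 0.68. Bst2, a tetherin that holds virus particles at the cell surface, stood at 7896 and 11359, a log2 ratio of 0.52. The RNA sensors Ddx58 and Ifih1 were at 0.21 and 0.23. Stat2, a signal transducer of the interferon receptor, stood at -0.03, below the effector genes named here. Outside the list, Ifi27l2a, an interferon-induced gene, stood at 719 and 1515, a log2 ratio of 1.07, and Apol9b at 860 and 1505, a log2 ratio of 0.81. Oas1d, Apol9b and the Ifit genes have close copies, so their single values are uncertain. Both groups carried retrovirus, and only the Ctcf shRNA virus was concentrated, as given above; its part in these ratios was not tested.

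The promoters of 3 of these genes are shown because they hold the core of the element that interferon-activated factors bind, GAAANNGAAA on either strand (capitals). Each is the 150 bases before the start site from RefSeq, GRCm38.p6, on the strand of the gene. In Isg15 3 overlapping matches run together.
Isg15 chr4:156200819-156200968 (-): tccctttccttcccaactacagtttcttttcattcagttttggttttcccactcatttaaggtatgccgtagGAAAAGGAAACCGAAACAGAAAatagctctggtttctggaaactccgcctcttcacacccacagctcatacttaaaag
Ifit1 chr19:34640739-34640888 (+): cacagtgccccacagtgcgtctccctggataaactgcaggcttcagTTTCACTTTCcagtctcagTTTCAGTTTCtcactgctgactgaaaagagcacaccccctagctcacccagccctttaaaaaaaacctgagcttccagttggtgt
Rsad2 chr12:26456453-26456602 (-): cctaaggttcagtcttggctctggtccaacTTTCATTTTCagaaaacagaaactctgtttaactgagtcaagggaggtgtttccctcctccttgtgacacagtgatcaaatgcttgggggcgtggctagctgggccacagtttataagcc
A promoter was found for 14 of the 17 genes, and 9 of the 14 (64.3%) held the element. It was in 3.44% of all 32851 promoters and in 2.97% of those of the 8827 kept genes with a promoter. The list holds known interferon-stimulated genes, so its high share is no result of the day 10 ratios. Irf7, Oasl2, Irf9, Ifi44 and Ifit2 had no match in their window. Among genes at least 1.5-fold higher with less Ctcf, 8 of 135 promoters (5.93%) held it, and among those at least 1.5-fold lower 5 of 164 (3.05%).

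**Figure D2:**
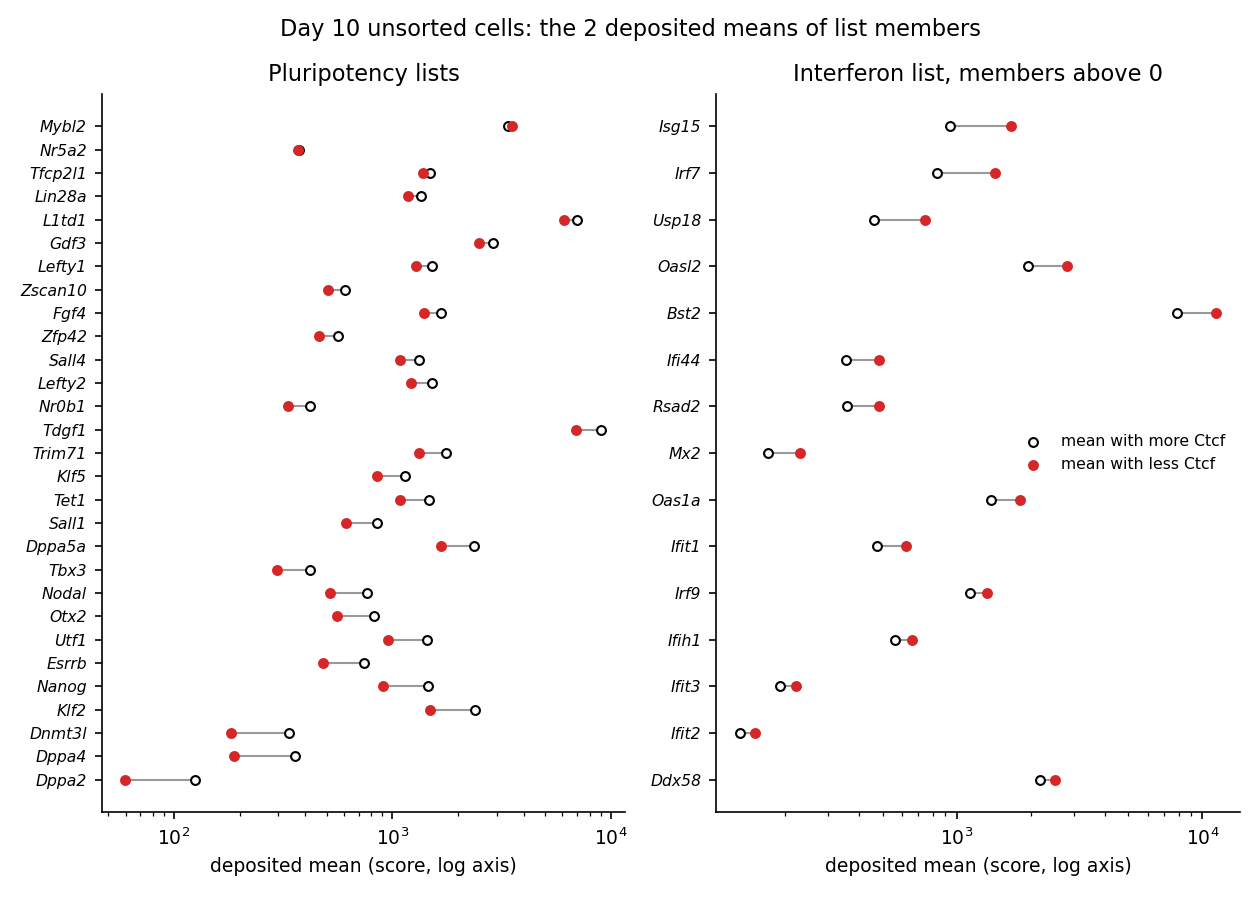
Each row is 1 kept gene of the 2 pluripotency lists (left) or 1 of the 15 genes of the interferon list above 0 (right), and the x axis is the deposited mean on a log scale. White circles are the mean with more Ctcf and red circles the mean with less. Red lies left of white for 28 of 29 pluripotency genes, and the interferon genes drawn are those with red right of white.

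Keratinocyte genes were mostly higher with less Ctcf, while genes of epithelial junctions were split. Krt14 (GRCm38 chr11:100203162-100207548), a keratin of basal epidermal cells, stood at 1840 with more Ctcf and 2956 with less, a log2 ratio of 0.68. Krt6b was at 0.57, Krt6a at 0.41 and Krt17 at 0.37, and 8 of 9 kept members were above 0, with a median of 0.29. Krt16, at -0.20, was the exception. Krt6a and Krt6b are close copies. Of 20 genes of epithelial junctions 11 were above 0 and 9 below, with none past 1.5-fold. Cdh1, the adhesion molecule E-cadherin, stood at 11076 and 9644, a log2 ratio of -0.20, and Dsp, the desmosomal protein desmoplakin, at 0.19.

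Early response genes of the AP-1 family were lower with less Ctcf. Fos (GRCm38 chr12:85473890-85477273), a subunit of the AP-1 factor, stood at 16479 with more Ctcf and 9724 with less, a log2 ratio of -0.76. Its partner Jun was at -0.45, Fosb at -0.43 and Egr2, a zinc finger factor of the same early response, at -0.54. Of 13 kept members 11 were below 0, with a median of -0.22, and 1 was past 1.5-fold lower. By the authors' deposited p, 9 were lower with a value below 0.05, against 12.2% of all genes. That share is not matched in level, and at high scores a small ratio could also have such a p. Junb did, at 8164 with more Ctcf and 7116 with less, a log2 ratio of -0.20. Fosl1, at 0.46, and Egr3, at 0.06, were above 0. Of 9 kept genes of chemokines and inflammation 7 were below 0: the cytokine Il6 was at 256 and 115, a log2 ratio of -1.16, and Ptgs2, the inducible cyclooxygenase, at -0.54.

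Fibroblast genes did not take the opposite side to the pluripotency genes. Of 20 kept genes of fibroblast matrix 17 were below 0, with a median of -0.11. Col1a2, a chain of type I collagen, stood at 13767 and 10360, a log2 ratio of -0.41, while Col1a1, the other chain, was at -0.07. Hox genes, which keep positional identity in fibroblasts, were below 0 in 17 of 19 kept members, with a median of -0.30. Hoxc9 at -0.66 and Hoxc5 at -0.62 were past 1.5-fold, though 3 of the 19 were lower with a p below 0.05 in the authors' deposited table, a share near the 12.2% of all genes. Of 24 kept imprinted genes 18 were below 0: Peg10, a retrotransposon-derived gene, was at -0.62, and H19 and Igf2, which share an enhancer and a CTCF-bound control region, at -0.55 and -0.44. Snrpn, Ndn and Dlk1 were above 0, at 0.28, 0.42 and 0.45.

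Mesenchymal factors and signalling genes were mixed. Of 16 kept mesenchymal genes 11 were below 0 and 5 above, with a median of -0.07. Twist1, a factor of mesenchymal identity, stood at 976 with more Ctcf and 723 with less, a log2 ratio of -0.43, and Cdh11, a cadherin of fibroblasts, at -0.39. Thy1, the surface marker that fibroblasts lose during reprogramming, stood at 703 and 846, a log2 ratio of 0.27. Of 18 kept genes of TGF-beta signalling 11 were above 0 and 7 below, with a median of 0.03 and none past 1.5-fold. Of 14 kept Polycomb genes 11 were below 0, with a median of -0.13 and none past 1.5-fold. Of 23 listed clustered protocadherins, whose promoter choice depends on CTCF, 5 were kept, 2 above 0 and 3 below. Pcdhgc3 stood at 378 and 600, a log2 ratio of 0.67. With overexpressed CTCF it was at 0.12 for more over less Ctcf. Its mean effect in the day 9 fit described below was -0.01 (adjusted p = 0.88).

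**Figure D3:**
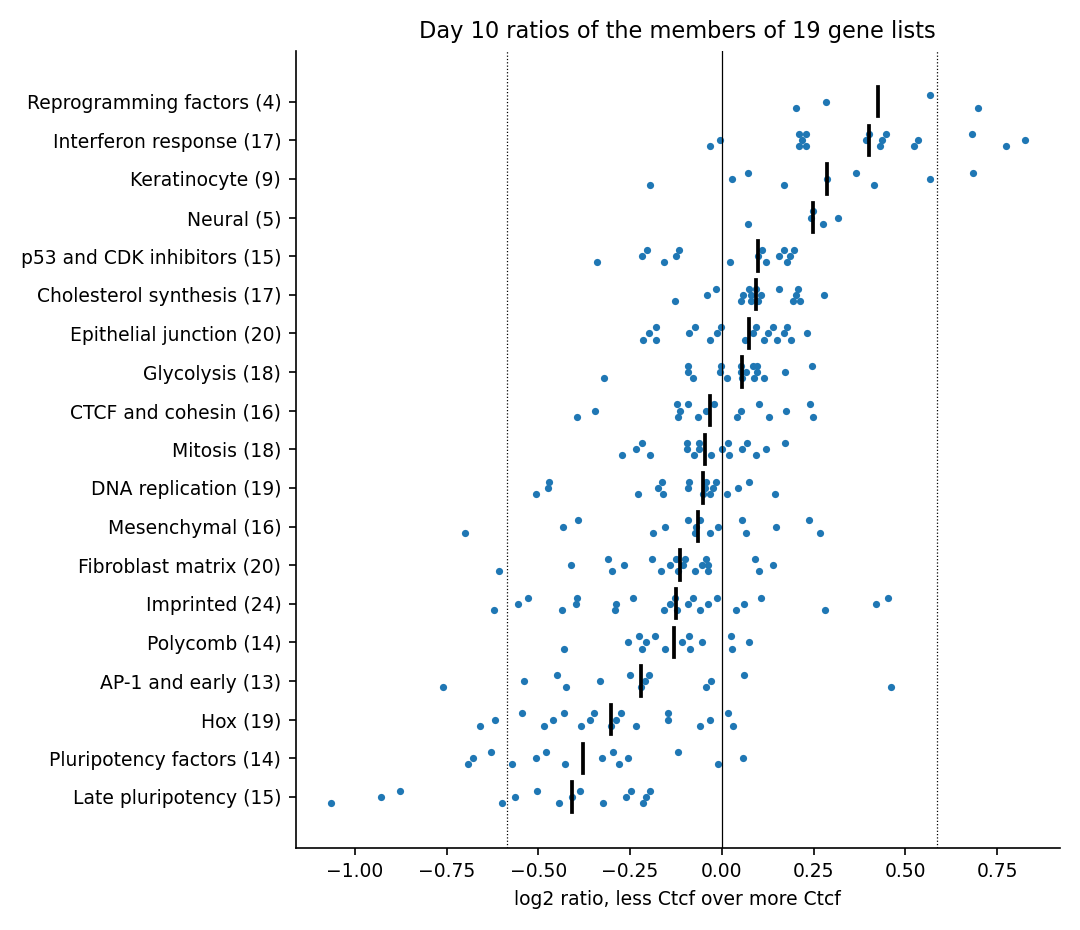
Each dot is a kept member of a gene list, placed by its log2 ratio on the x axis, and black bars are list medians. The number of kept members stands beside each list name, and dotted lines mark 1.5-fold. Over the 19 lists drawn, the medians run from -0.41 for late pluripotency to 0.42 for the 4 delivered factors.

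Genes of growth and metabolism lay close to 0. The medians were -0.05 for DNA replication, -0.05 for mitosis, 0.05 for glycolysis, 0.09 for cholesterol synthesis and 0.10 for p53 targets and CDK inhibitors, with none of these members past 1.5-fold. Gins2, a subunit of the replicative helicase, had the largest difference among the replication genes, at -0.51. Marker genes of other cell types gave no common direction. Summed over the macrophage list the score was 2594 with more Ctcf and 3377 with less, most of it from Laptm5, Cd68 and Itgam. Tyrobp, which myeloid cells express throughout, was at the lowest value of the table in both means, and Ptprc, Adgre1 and the C1q genes were below 10. The 4 kept trophoblast genes were all below 0, with Gata3 at -0.85, and the 5 kept neural genes all above 0, with Nes, an intermediate filament of neural progenitors, at 0.32.

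Single genes outside the lists had the largest ratios. Gpr50 (GRCm38 chrX:71663667-71669257), an orphan receptor related to the melatonin receptors, stood at 326 with more Ctcf and 1025 with less, a log2 ratio of 1.65. Among the named genes with a higher mean of at least 1000 it had the largest ratio. Miat, a long noncoding RNA, stood at 2288 and 3973, a log2 ratio of 0.80. Eya2, a transcriptional coactivator, was at 1.33. Others had low means: Camk2a, a calcium-dependent kinase, stood at 31.2 and 151. Shisa6, an auxiliary protein of glutamate receptors, stood at 35.9 and 124, and Dlg2, a synaptic scaffold, at 32.9 and 119. Clpb at 0.83, a mitochondrial disaggregase, Mrps23 at 0.84, a mitochondrial ribosomal protein, and Aldh16a1 at 0.88 were among the 12 highest genes with a mean of at least 1000.

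On the lower side, Adnp (GRCm38 chr2:168180986-168207112), a homeobox protein of chromatin, stood at 267 and 31.1, a log2 ratio of -3.10. In the overexpression experiment given below it lay the other way, at 314 with less Ctcf and 251 with more. Its p there was 0.828 in the authors' deposited table. Its scores in the day 9 libraries given below ran from 2063 to 2864, and how its day 10 reads were assigned was not tested. Rtl5, a gene derived from a retrotransposon, stood at 110 and 23.1, a log2 ratio of -2.25. Dnm3os, a noncoding RNA, stood at 205 and 50.0, a log2 ratio of -2.04. These are low means, and with a pseudocount of 10 the 2 ratios shrank to -1.86 and -1.84. With higher means above 1000, Slc30a7, a zinc transporter, and Plcl1 were both at -0.81, Cpe, a carboxypeptidase of neuropeptide maturation, at -0.78, and Wasf3, an actin regulator, at -0.76. Some large ratios came with a high p in the authors' deposited table: Amy2a4 stood at 2.98 with a p of 0.503, and Pde2a at -1.45 with a p of 0.806. Amy2a4 and Amy2a5 are near copies and lay on opposite sides, at 2.98 and -8.24. Zc3h11a has 2 gene models, at 0.99 and -0.59. For such pairs the table cannot show which copy the reads came from.

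Genes that lie side by side on a chromosome were seldom both far from 0. Of 7927 pairs of adjacent kept genes whose starts lie within 100 kb, 25 (0.315%) had both genes past 1.5-fold, and 12 of these 25 had the same direction, beside 53% of all such pairs on the same side of 0. The 25 include both models of Zc3h11a and the copies Amy2a5 and Amy2a4, whose reads cannot be assigned. Among the 12 were Dppa4 and Dppa2, Hoxc5 and Hoxc9, and Rhox5 and Rhox6, homeobox genes of the X chromosome. The core of the CTCF motif, CCNNNAGNNGGC on either strand, was in 11 of 135 promoters (8.15%) of genes at least 1.5-fold higher and in 21 of 164 (12.8%) of those at least 1.5-fold lower. Of the kept genes with a promoter in the table, 1180 of 8827 (13.4%) held it.

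Genes that separate fibroblasts from pluripotent cells were compared through the series' own libraries, 1 of MEF and 1 of iPSC. Of 10821 kept genes with at least 50 reads there, 543 (5.02%) were at least 8-fold higher in iPSC and 532 (4.92%) at least 8-fold higher in MEF. The iPSC-high genes had a median day 10 ratio of -0.04, with 10 (1.84%) past 1.5-fold higher and 29 (5.34%) past 1.5-fold lower. The MEF-high genes also had a median of -0.04, with 6 (1.13%) and 16 (3.01%). Of all 10821 genes, 1.03% were past 1.5-fold higher and 1.46% lower. Among iPSC-high genes the shares in both directions were thus larger than these. Among MEF-high genes the share of lower genes was larger and that of higher genes similar. Both medians lay near 0.

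The same experiment type with the opposite change in Ctcf was set beside these ratios. In the authors' deposited table of CTCF overexpression at day 10, which has its own control libraries, Ctcf stood at 2039 in one mean and 10177 in the other. Nanog had a log2 ratio of 0.64 for more over less Ctcf there, Dnmt3l 1.51 and Dppa4 1.47. Gpr50 was at -1.47, Krt14 at -0.90, Miat at -1.56 and Il6 at 1.98. These genes, picked after values were seen, were on the same side with respect to Ctcf in both experiments. Miat had a p of 0.0966 in that table. Other named genes were lower with less Ctcf and also lower with more: H19 at -0.34, Egr2 at -0.59, Gata3 at -0.63 and Slc30a7 at -0.28. Of all 11972 shared genes, 5328 (44.5%) likewise had the same sign in both ratios, which places them on opposite sides with respect to Ctcf. In both pluripotency lists together 25 of 29 genes were above 0 with more Ctcf, with a median of 0.64 beside 0.01 for all shared genes. All 9 keratinocyte genes were below 0 there, with a median of -0.75, and so were the 4 delivered factors, with a median of -0.34. The early response genes were split, 7 above 0 and 6 below, with Fos at 0.05. Of 15 interferon genes 10 were below 0, with a median of -0.10. Replication genes, close to 0 with less Ctcf, were above 0 in 18 of 19 members with overexpressed CTCF, with a median of 0.35. Of the 162 genes at least 1.5-fold higher with less Ctcf at day 10 that had a higher mean of at least 100 there, 124 were below 0 with overexpressed CTCF and 38 above. Of 187 lower ones 122 were above 0 and 65 below, and of all 11972 shared genes 6256 were above. Isg15 and Irf7 were at -0.29 and -0.14. Shisa6, at 2.00, was higher with less Ctcf in one experiment and with more Ctcf in the other. Its means with overexpression were 23.8 and 95.2, below the minimum of 100, so it is not among the 11972 genes. Across the 11972 genes, which are not independent, the correlation was -0.16 (Pearson) and -0.17 (Spearman).

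Replicated knockdown libraries exist for day 9, and no threshold above used them. These 12 libraries came from another system, cells with doxycycline-inducible lentiviral OSKM, and were sorted into Thy1+, SSEA1+ and double-negative (SSEA1-Thy1-) cells, with 2 libraries per population for the control shRNA (shLuci) and for the Ctcf shRNA. Differences were fitted with limma on log2(score + 1). Averaged over the 3 populations, 1932 of 13451 genes (14.4%) rose and 2167 (16.1%) fell with the Ctcf shRNA at an adjusted p below 0.05. Ctcf fell by 1.27 there on the log2 scale (SE 0.0498, adjusted p = 8.25e-16), a larger difference than at day 10.

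A minority of the day 10 differences recurred there. Of the 224 genes at least 1.5-fold higher at day 10, 156 were measured at day 9, of which 44 rose (28.2%) and 25 fell (16%). Of the 271 lower ones 203 were measured, of which 61 fell (30%) and 14 rose (6.9%). Of all 11473 shared genes 15% rose and 16.8% fell. Across all 11473 shared genes the correlation of the day 10 ratio with the day 9 mean effect was 0.15 (Pearson) and 0.11 (Spearman). The system, the day and the sorting all differ between the 2 experiments and cannot be told apart.

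The single genes followed at day 9 were chosen after values were seen, and the lists with earlier results of these data known. Their day 9 values are thus no independent check of the day 10 ratios. Gpr50 rose in each of the 3 populations at day 9. Its scores were 22 and 18 in control Thy1+ libraries and 52 and 70 with the Ctcf shRNA. In SSEA1+ cells they were 70 and 88 against 417 and 474, and in double-negative cells 54 and 73 against 370 and 446. No library with the Ctcf shRNA overlapped the controls of its population, and the mean effect was 2.24 (SE 0.115, adjusted p = 1.71e-13). Krt14 rose on average: its scores were 16 and 11 against 31 and 23 in Thy1+ cells, 80 and 75 against 212 and 198 in SSEA1+ cells, and 48 and 40 against 85 and 70 in double-negative cells. The groups did not overlap in any population, and the mean effect was 1.05 (SE 0.188, adjusted p = 0.000112). Krt6b, at 0.57 at day 10, fell at day 9: its scores were 329 and 237 against 57 and 70 in Thy1+ cells, 901 and 908 against 625 and 610 in SSEA1+ cells, and 941 and 952 against 184 and 198 in double-negative cells. Its mean effect was -1.66 (SE 0.110, adjusted p = 1.21e-11). Of the 5 keratinocyte genes measured at day 9, 1 rose and 1 fell, with a median of -0.03. For so few genes these counts are near the 15% of shared genes that rose and the 16.8% that fell. Clpb, in the same direction as at day 10, rose by 0.45 (SE 0.0399, adjusted p = 2.67e-09) with no overlap in any population.

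Fos fell in each population. Its control scores were 9793 and 10342 in Thy1+ cells, 4294 and 4681 in SSEA1+ cells and 4772 and 5314 in double-negative cells. With the Ctcf shRNA they were 5526 and 6526, 1861 and 2132, and 3146 and 3206. The groups did not overlap in any population, and the mean effect was -0.86 (SE 0.0446, adjusted p = 1.73e-13), close to the day 10 ratio of -0.76. Of the 13 early response genes 10 fell and none rose by the same test, against 16.8% of shared genes that fell. Wasf3 fell from 382 and 409 to 80 and 118 in Thy1+ cells, from 732 and 713 to 434 and 366 in SSEA1+ cells, and from 538 and 548 to 136 and 188 in double-negative cells. Its mean effect was -1.54 (SE 0.083, adjusted p = 2.68e-13). Il6 fell by 1.90 on average (SE 0.237, adjusted p = 7.4e-07).

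**Figure D4:**
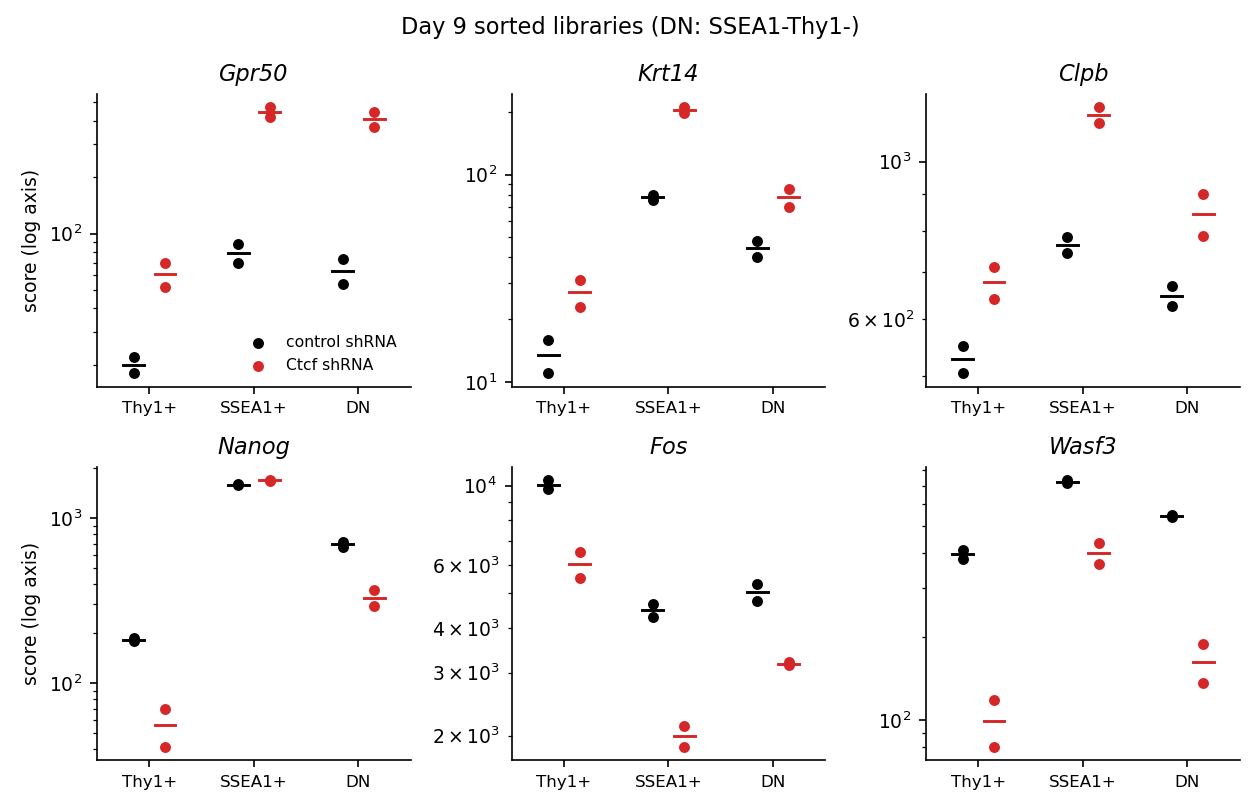
Dots are the 2 libraries of each shRNA in a day 9 population, bars their mean, and the y axis is the score on a log scale. Gpr50, Krt14 and Clpb lie higher with the Ctcf shRNA in all 3 populations and Fos and Wasf3 lower, while Nanog lies lower in Thy1+ and double-negative cells and close to the control in SSEA1+ cells.

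The pluripotency genes were lower on average at day 9, with values above 0 for many of them in SSEA1+ cells. Nanog scored 187 and 180 in control Thy1+ cells against 70 and 41, and 668 and 720 in double-negative cells against 291 and 366. In SSEA1+ cells its scores were 1607 and 1582 against 1694 and 1688. The mean effect was -0.92 (SE 0.257, adjusted p = 0.00778). Of the 29 genes of both lists 13 fell and 1 rose by this test, against 16.8% of shared genes that fell and 15% that rose. The medians of the 29 were -1.34 in Thy1+ cells, 0.43 in SSEA1+ cells and -0.45 in double-negative cells. Those of all shared genes were 0.02, 0.02 and -0.001. Some of the 29 had scores near the floor in Thy1+ cells, so their ratios there are uncertain. Dppa2 scored 5 and 17 in the controls against 1 and 4, and Dppa4 8 and 21 against 2 and 4. Whether the effect differed between the populations was tested per gene, and 3476 of 13451 genes (25.8%) passed. For Nanog the difference gave an adjusted p of 0.0746 and for Esrrb 0.0284. Esrrb fell by 0.93 on average (SE 0.303, adjusted p = 0.0209), a call lost without the first Ctcf shRNA Thy1+ library (adjusted p = 0.0605) or the second control double-negative library (adjusted p = 0.0512).

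The 4 delivered factors went the other way at day 9. Klf4 fell by 0.67 (SE 0.0838, adjusted p = 8.45e-07), Sox2 by 0.76 (SE 0.104, adjusted p = 3.06e-06), Myc by 0.77 (SE 0.0789, adjusted p = 3.21e-08) and Pou5f1 by 0.72 (SE 0.113, adjusted p = 1.85e-05). These averages come with unequal populations: the effects in Thy1+ cells were -1.16, -1.57, -1.54 and -1.70, and those in SSEA1+ cells were -0.13, -0.04, -0.13 and 0.03, none of which passed the test. At day 10 their ratios were 0.70, 0.57, 0.28 and 0.20. The 2 systems deliver the factors differently, by retrovirus and by an inducible lentivirus, and the part of delivery in this contrast was not tested. Of the interferon list 12 genes were measured at day 9, and 2 rose and none fell, a share near the 15% of shared genes that rose. Irf7 gave 0.25 (SE 0.208, adjusted p = 0.397) with overlapping libraries, and Isg15, Usp18 and Ifi27l2a are not among the genes used there.

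For other lists the day 9 average joined populations on different sides of 0. Of 20 fibroblast matrix genes 12 fell on average and none rose, against 16.8% of shared genes that fell, with medians of -0.02 in Thy1+, -1.21 in SSEA1+ and 0.20 in double-negative cells. Of 19 Hox genes 4 rose on average and none fell, against 15% of shared genes that rose, and their medians were 0.41, -0.55 and 0.46 in the same order. Of 19 replication genes 16 fell on average, with medians of -0.33, 0.17 and -0.48, and of 18 mitosis genes 14 fell, with medians of -0.52, 0.08 and -0.48. The day 10 medians of these 4 lists were -0.11, -0.30, -0.05 and -0.05.

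The day 10 ratio of Adnp had no like at day 9. Its scores there ran from 2436 to 2864 in 6 control libraries and from 2063 to 2581 with the Ctcf shRNA, a mean effect of -0.18 (SE 0.075, adjusted p = 0.0678, and 0.00559 when the 12 libraries were fitted alone). Slc30a7 gave 0.02 (SE 0.0431, adjusted p = 0.749), Tsn -0.04 (SE 0.0477, adjusted p = 0.604) and Mrps23 0.08 (SE 0.072, adjusted p = 0.476). These 4 had day 10 ratios of -3.10, -0.81, 0.76 and 0.84.

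**Figure D5:**
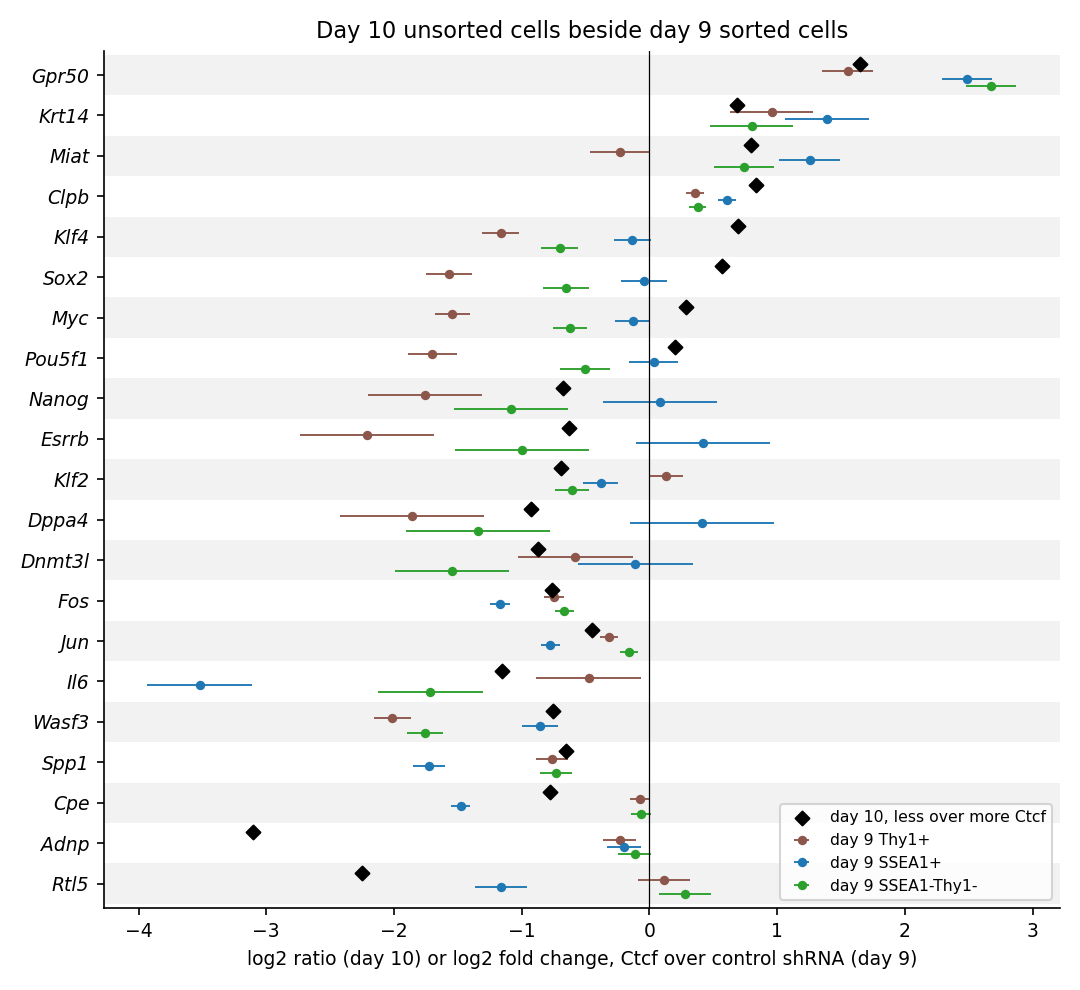
Rows are genes, and the x axis is the log2 ratio at day 10 (black diamonds, no error available) or the log2 fold change of Ctcf over control shRNA in each day 9 population (coloured circles with moderated SE). Gpr50, Krt14 and Clpb lie right of 0 and Fos, Il6 and Wasf3 left of 0 at both days, while the 4 delivered factors lie right of 0 at day 10 and, apart from Pou5f1 in SSEA1+ cells at 0.03, left of 0 at day 9.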

How the data were processed

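The 4 day 10 libraries enter only through the authors' deposited table. The submitters' processing notes name RSEM, FastQC, Trim Galore and the build GRCm38 (mm10); versions and strand setting are not given in the sources used here. In the authors' deposited tables, the score columns are condition means with a lowest value of 0.5, the log2 column is the ratio of these means, and the p-value column has no stated adjustment; all were identified from their arithmetic, since the files have no headers. The normalization of the scores is not stated. The sorted table deposited by the authors holds a normalized score per library (gene totals from 26119844 to 28981763 in 44 libraries). The deposited MEF and iPSC table (mm9) holds counts (totals 16593659 and 9912018), compared as counts scaled to equal totals (CPM) with 1 added.

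Day 10 ratios were computed in Python 3.11.15 for genes with a higher mean of at least 100. Day 9 used limma 3.58.1 in R 4.3.3 on log2(score + 1) with its trend option and all 44 libraries (22 residual degrees of freedom); genes needed a score of 10 in at least 2 libraries, and 819 repeat types were left out. Adjusted p is Benjamini-Hochberg over 13451 genes, and the script was tested on simulated data. Residual spread comes from 2 libraries per group and may be technical, so p-values measure only the spread between these samples. Day 9 score tables lack a known depth, so no counting interval is given.

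Annotation is GENCODE M21, which holds 54013 of the 54395 gene IDs with their version. Named genes are Ctcf, the 12 with the largest ratio per direction at a higher mean of 100 and of 1000, and the 4 largest of each list; predicted, clone and pseudogene symbols were left out. List members beyond the 4, and the genes shown for day 9, were chosen after values were seen. The members and lists were chosen with earlier results of these data known. Alternatives covered the minimum, scaling, pseudocount, filter, normalization, libraries in the fit, a replicate block, single libraries left out and, added after seeing the data, protein-coding genes only. Some list members are not reported here by name.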

Additional observations from a re-analysis of the deposited data

Results flagged for a closer look

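For 17 of the 33 genes shown for day 9, the effect of the Ctcf shRNA differed between the 3 sorted populations. The test was the limma F test, adjusted over all genes, and 3476 of 13451 genes (25.8%) passed it. The 33 genes were chosen after values were seen, so the 17 is no rate for a wider set. The unsorted day 10 value of these 17 genes stands beside unequal values in sorted cells. Cpe differed the most (adjusted p = 6.8e-10): its effect was -1.48 in SSEA1+ cells, -0.07 in Thy1+ cells and -0.07 in double-negative cells. Among the delivered factors the adjusted p was 1.93e-05 for Myc, 0.000119 for Pou5f1, 0.000239 for Sox2 and 0.00174 for Klf4, with the lowest values in Thy1+ cells (-1.54, -1.70, -1.57 and -1.16) and values near 0 in SSEA1+ cells (-0.13, 0.03, -0.04 and -0.13). Jun, Fos, Spp1 and Il6 fell most in SSEA1+ cells: Jun (0.000156) gave -0.77, Fos (0.00197) -1.17, Spp1 (0.000127) -1.73 and Il6 (0.00111) -3.52. For Wasf3 (0.000276) the fall was smallest in SSEA1+ cells, at -0.86. Gpr50 (0.00751) ranged from 1.55 in Thy1+ cells to 2.67 in double-negative cells, and Miat (0.00469) from -0.23 in Thy1+ cells to 1.25 in SSEA1+ cells. Esrrb (0.0284) gave -2.21 in Thy1+ and 0.42 in SSEA1+ cells, Klf2 (0.0142) 0.13 in Thy1+ and -0.61 in double-negative cells, Krt6b (3.08e-05) -2.30 in double-negative and -0.55 in SSEA1+ cells, Krt17 (0.0066) -0.71 in Thy1+ and 0.90 in SSEA1+ cells, and Rtl5 (0.000725) -1.16 in SSEA1+ and 0.28 in double-negative cells.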

How the results depend on the processing

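The day 10 counts depended on the minimum score. At least 2-fold higher and lower were 106 and 104 genes at a minimum of 50, 9 and 2 at 500, and 3120 and 3696 with none. At least 1.5-fold they were 412 and 449, 56 and 50, and 5072 and 6005. Centring moved the ratios by -0.003 or 0.01 only, and centring, a pseudocount of 10, 1 row per symbol and protein-coding genes only kept each count within 1.5 times. No Hox gene reached 500, so that list has no value there. The largest ratios of low genes shrank with a pseudocount of 10, for example Adnp to -2.75.

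Without 1 day 9 library at a time, genes rising and falling ranged over 1562 to 1833 and 1824 to 2009 for the mean effect, 492 to 781 and 1080 to 1482 in Thy1+ cells, 279 to 391 and 758 to 964 in SSEA1+ cells, and 1153 to 1404 and 1039 to 1229 in double-negative cells. The mean effect of Krt17 changed sign without the second Ctcf shRNA Thy1+ library (0.0216) or the first control Thy1+ library (0.000195), with a range of -0.0888 to 0.0216, and that of Slc30a7 without the second Ctcf shRNA SSEA1+ library (range -0.0042 to 0.0487); neither gene was called. Esrrb lost its call without the first Ctcf shRNA Thy1+ library (adjusted p = 0.0605) or the second control double-negative library (0.0512). Dnmt3l lost its call in 7 of 12 and Dppa4 in 6 of 12 such fits, and Wfdc2 in 1. Within each population the lowest counts came without the first control library of the population, except genes falling in SSEA1+ cells (without the first Ctcf shRNA library); a lone library is assumed to vary like the other groups.

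Replicate numbers do not pair the day 9 samples by their labels, and the correlations of same-numbered deviations within a population were 0.004, 0.05 and 0.01. With the number as a replicate block, 2077 genes rose and 2281 fell on average, 1187 and 1736 in Thy1+ cells, 751 and 1298 in SSEA1+ cells and 2125 and 1977 in double-negative cells, and Adnp gained a call (adjusted p = 0.0198). No paired analysis was possible for day 10 because its table holds no replicate values. Depth is not known for the scores, and with 1 mean per condition no day 10 ratio has an error.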
